A study of Mus musculus with 8 samples.

Results

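Integrins, selectins and related homing adhesion genes were followed in trafficked maternal cells and recipient cells of pups that had or had not received intrauterine transplantation (IUT). The set holds 33 of the 52784 genes in the count table and was chosen by name. It comprises 16 integrin alpha chains, 8 integrin beta chains, the selectins Sele and Selp, the selectin ligand Selplg, the immunoglobulin-family genes Icam1, Icam2, Vcam1 and Pecam1, the hyaluronan receptor Cd44 and the sphingosine-1-phosphate (S1P) receptor S1pr1. The question was how these genes differed between maternal and recipient cells, after IUT, and after depletion of maternal dendritic cells (DC).

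The dams were CD11c-DTR mice of the C57BL/6 (B6) strain, in which the promoter of the CD11c gene drives a diphtheria toxin receptor. They were mated with BALB/c males to give F1 pups. A dam with the transgene loses CD11c+ DC for a short time after diphtheria toxin (DT). The 4 treatments were sequenced, each as 1 maternal and 1 recipient library from pups aged 1 week. DC control mIUT pups had received B6 marrow (CD45.1, H2K-b) and DC control pIUT pups had received BALB/c marrow, in both cases with saline given to the dam. DC-depleted pIUT pups had received BALB/c marrow after DT at 5 ng/g to the dam. DT or saline was given on embryonic day 13, and 5000000 bone marrow mononuclear cells were injected into the fetal liver on embryonic day 14. Uninjected pups received no cells. Their dams had or had not received DT, and how the pooled pups divide between the 2 kinds of dam is not given in the labels. Mononuclear cells were sorted with magnetic beads and by flow cytometry on H2K-b (maternal) or H2K-d (recipient). F1 cells carry both haplotypes, B6 donor cells share H2K-b with maternal cells, and BALB/c donor cells share H2K-d with recipient cells. Either marker by itself thus cannot tell these origins apart. In its flow cytometry the study took cells with both markers as recipient and told B6 donor cells by CD45.1. Whether the sort for sequencing also did so is not stated.

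Pups were pooled and each origin and treatment gave a single library, so no difference between treatments has a replicate check and none is given a p value. Ratios below compare libraries. Totals lay between 38543457 and 47965130 counts on genes, and genes reaching 10 counts numbered between 9125 in the recipient uninjected library and 16231 in recipient DC-depleted pIUT. The reads carried no molecular identifiers, so intervals at the 95% level and detection limits cover counting error only. The labels call the cells mononuclear, and markers were checked against that. Ptprc (CD45, carried by leukocytes) stood between 70.2 and 459 CPM (counts scaled to a common library size by edgeR's TMM method) in 7 libraries and at 2.63 CPM in maternal DC-depleted pIUT. Erythroid markers were high in that library, at a summed 131060 CPM, against 13657 to 93000 CPM in the other maternal libraries and 134 to 84269 CPM in recipient cells. Neutrophil markers summed to 86709 and 146830 CPM in maternal and recipient DC control mIUT and to between 438 and 28386 CPM elsewhere. In these bulk libraries fewer cells of a type and less RNA per cell cannot be told apart.

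Integrins are pairs of an alpha and a beta chain, and the pair decides which ligand is held. Pairs with the beta 2 chain (Itgb2) are carried by leukocytes and bind Icam1 and Icam2 on vessel walls. Itga4 pairs with Itgb1 or Itgb7 and binds Vcam1 or the gut addressin Madcam1. Selectins start the rolling of leukocytes by holding sugars on Selplg (PSGL-1), integrins then arrest the cell, and S1pr1 guides lymphocytes out of tissue towards S1P in blood.

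Of the 33 members, 29 had at least 10 counts in some library and 4 (Itga2, Itga10, Itga11 and Sele) had no count in any of the 8. A count of 3, taken as the limit of detection, equals 0.0547 to 0.105 CPM. By role, 13 of 16 alpha chains, 8 of 8 beta chains and 1 of 2 selectins were found. In all, 8 members had at least 10 counts in all 8 libraries: Itgal, Itgam, Itgb1, Itgb2, Selplg, Icam2, Pecam1 and Cd44. This is 27.6% of the 29, and the share among all 20005 genes with 10 counts in some library was 29.9%. Member counts made up 0.0215% to 0.306% of a library, lowest in maternal DC-depleted pIUT.

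**Figure D1:**
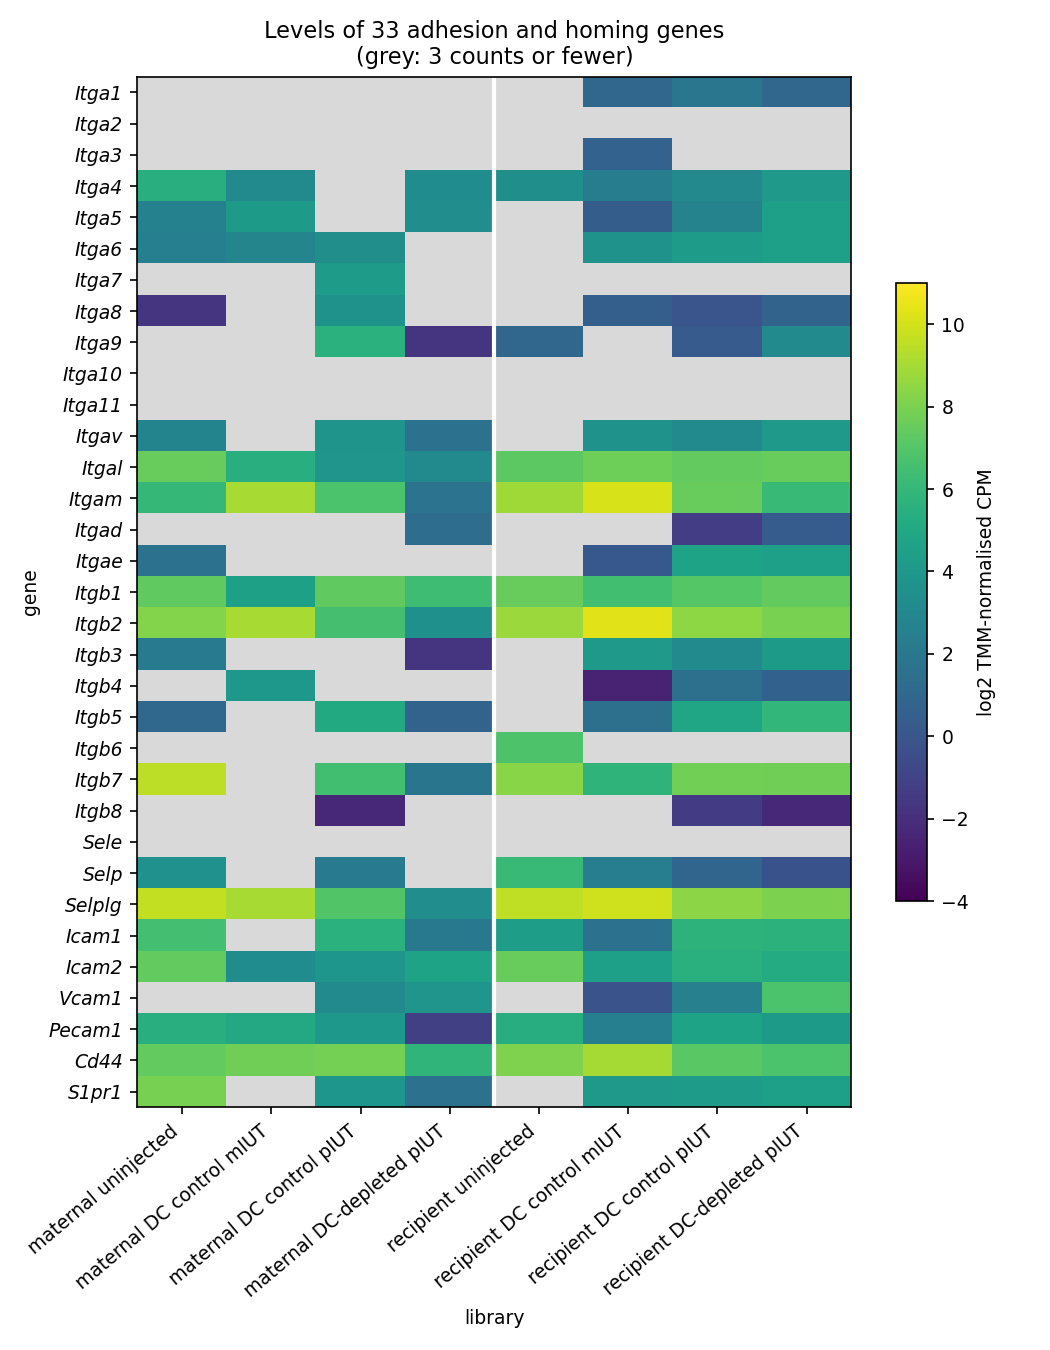
Level of each of the 33 genes (rows) in the 8 pooled libraries (columns, maternal to the left of the white line), as colour on a log2 scale of TMM-normalised CPM. Grey cells had 3 counts or fewer. Itgb2, Selplg, Itgb1 and Cd44 are coloured in every library, and many alpha chains and Itgb6 are coloured in few.

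Compared per length of the canonical transcript, the mean level over the 8 libraries was highest for Selplg, at 251 CPM per kb, then for Itgb2 at 136 and Itgam at 84.1 CPM per kb. Itgb7 followed at 76.3, Cd44 at 37.6, Itgb1 at 25.1, Itgal at 22.8 and S1pr1 at 13.3 CPM per kb. These means hide a wide spread between libraries, with Itgb7 between 0.00963 and 276 CPM per kb. The most abundant member within a library also changed. It was Selplg in 7 libraries, at 65.4 to 518 CPM per kb. In maternal DC-depleted pIUT it was Itgb1, at 16.1 CPM per kb, followed by Cd44 at 10.02 and Selplg at 5.36 CPM per kb.

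The beta 2 integrin genes Itgb2, Itgal and Itgam had counts in all 8 libraries. Itgb2 (GRCm39, chromosome 10, 77366086 to 77401542) encodes the shared beta chain. Itgal (chromosome 7, 126895432 to 126934320) encodes the alpha chain of LFA-1 on lymphocytes and other leukocytes. Itgam (chromosome 7, 127661808 to 127717753) encodes CD11b, the alpha chain of Mac-1 on neutrophils and monocytes. The 200 bases before the start of each canonical transcript are shown because these 3 genes had the smallest unadjusted p values of the set for maternal against recipient cells in edgeR's quasi-likelihood test, though not in DESeq2 or in the exact paired test. They are written 5′ to 3′ on the plus strand of GRCm39. Capitals mark GAGGAA or its reverse complement TTCCTC, the core of sites bound by PU.1, a transcription factor of myeloid and B cells.

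Itgal, chr7:126895232-126895431: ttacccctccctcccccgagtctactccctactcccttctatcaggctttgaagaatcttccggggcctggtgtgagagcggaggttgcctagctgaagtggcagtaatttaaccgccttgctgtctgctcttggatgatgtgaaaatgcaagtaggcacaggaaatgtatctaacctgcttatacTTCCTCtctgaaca

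Itgam, chr7:127661608-127661807: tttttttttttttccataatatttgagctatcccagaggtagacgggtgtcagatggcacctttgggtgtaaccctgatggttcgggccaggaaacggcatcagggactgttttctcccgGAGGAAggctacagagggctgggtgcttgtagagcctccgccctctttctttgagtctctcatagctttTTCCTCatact

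Itgb2, chr10:77365886-77366085: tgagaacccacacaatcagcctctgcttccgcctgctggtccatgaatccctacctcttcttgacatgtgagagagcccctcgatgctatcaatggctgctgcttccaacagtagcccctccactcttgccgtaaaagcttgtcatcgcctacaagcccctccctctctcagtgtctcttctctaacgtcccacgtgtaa

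The window of Itgal holds the letters at 1 place, from 14 to 9 bases before the start, and that of Itgam at 2 places, from 80 to 75 and from 11 to 6 bases before the start. The window of Itgb2 does not hold them. On either strand they occur in 4095 of 21757 windows of protein-coding genes (18.8%) and in 8 of the 33 members (24.2%). A second motif was searched on both strands, TGTGGT or ACCACA, the core of sites bound by RUNX factors of blood cells. It occurs in none of the 3 windows shown, in 1 of the 33 members, Itgae (3.03%), and in 2286 of 21757 windows (10.5%). A match is a string of letters and not a measured binding site, and these are the only 2 motifs searched.

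Maternal Itgb2 was at 298, 534, 94.2 and 11.3 CPM in uninjected, DC control mIUT, DC control pIUT and DC-depleted pIUT pups. The recipient values were 422, 1279, 349 and 253 CPM in the same order, which is kept for lists of 4 values below. The recipient library was the higher in each treatment. The maternal level was lower by 1.42-fold, 2.39-fold, 3.70-fold and 22.3-fold across these treatments.

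Maternal Itgal was at 180, 42.8, 14.4 and 8.84 CPM. Recipient cells held it between 149 and 205 CPM in all 4 libraries. Recipient levels of Itgal thus spanned a narrow range, while the 3 maternal IUT libraries lay below every recipient library. T cell markers summed to 2338, 468, 108 and 379 CPM in maternal and to 522, 628, 3389 and 908 CPM in recipient libraries. The sum was thus lower in maternal than in recipient cells in both pIUT treatments, with or without Cd3d. In DC control mIUT its direction rested on Cd3d, without which it was 272 CPM in maternal and 228 CPM in recipient cells. There 6 of the 8 markers were lower in maternal cells, and Cd2 and Cd3e were higher. The part of T cells in the Itgal level was not tested. The maternal level was 1.21-fold higher in uninjected pups, and 4.78-fold, 11.9-fold and 20.8-fold lower in DC control mIUT, DC control pIUT and DC-depleted pIUT.

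Itgam was at 62.5, 531, 109 and 3.30 CPM in maternal uninjected, DC control mIUT, DC control pIUT and DC-depleted pIUT cells. Recipient cells had 464, 1095, 186 and 68.8 CPM. Both origins were highest in DC control mIUT, where neutrophil markers were also highest, and lowest in DC-depleted pIUT for maternal and for recipient cells. Maternal Itgam levels were lower in each treatment, by 7.42-fold, 2.06-fold, 1.72-fold and 20.8-fold. Neutrophil markers summed to 843, 86709, 438 and 3209 CPM in maternal and to 9974, 146830, 28386 and 15678 CPM in recipient libraries. They were lowest in DC control pIUT for maternal and in uninjected pups for recipient cells. Monocyte and macrophage markers summed to 658, 503, 1234 and 85.9 CPM in maternal and to 1762, 374, 329 and 726 CPM in recipient libraries. The part of these cells in the Itgam levels was not tested.

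The balance of Itgam to Itgal within a library does not depend on the scaling between libraries. Per length, Itgam was 17.3 times Itgal in maternal DC control mIUT (interval 16.5 to 18.2) and 10.6 times in its pIUT counterpart (9.77 to 11.4). It was 0.485 times in maternal uninjected cells (0.463 to 0.508) and 0.522 times in the maternal DC-depleted library (0.415 to 0.652). Recipient ratios were 4.36, 7.47, 1.52 and 0.523. Thus Itgam exceeded Itgal in both DC control IUT libraries of each origin, and the maternal and the recipient DC-depleted library had overlapping intervals.

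**Figure D2:**
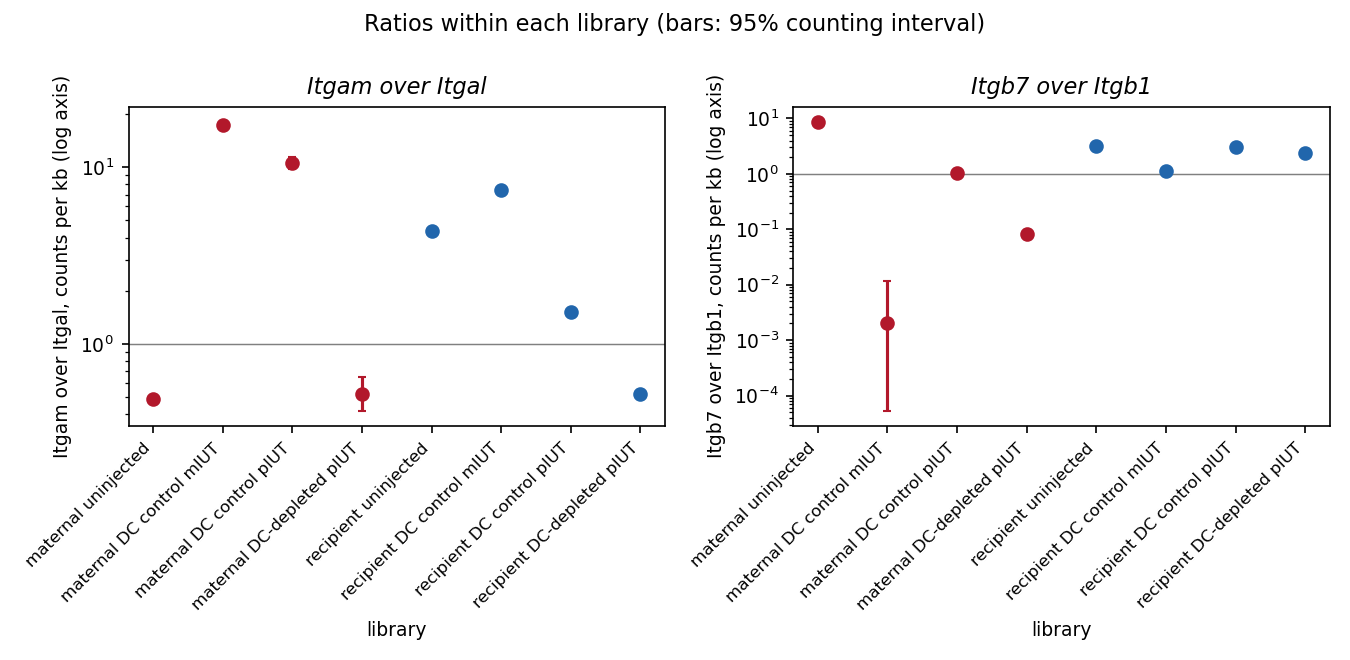
Counts per kb of Itgam over Itgal (left) and of Itgb7 over Itgb1 (right) in each of the 8 pooled libraries, on log axes, with maternal libraries in red and recipient libraries in blue; bars are 95% counting intervals. The Itgam ratio runs from 0.485 to 17.3, and the Itgb7 ratio is lowest in maternal DC control mIUT, where Itgb7 had 1 count.

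Itgad and Itgae are further leukocyte alpha chains of the set, which does not hold Itgax, the gene of CD11c. Itgad, a further partner of Itgb2, had 85 counts in maternal DC-depleted pIUT, 19 and 72 counts in recipient DC control and DC-depleted pIUT, and none in the other 5 libraries. Itgae (CD103), which pairs with Itgb7 and holds T cells and DC to epithelium, had 124 counts in maternal uninjected cells and 0 in the 3 maternal IUT libraries. Recipient counts of Itgae were 0, 32, 1177 and 1235. The origin with Itgae therefore switched between uninjected and IUT pups. The maternal level was at least 51.4-fold higher in uninjected pups and at least 14.4-fold, 439-fold and 248-fold lower in DC control mIUT, DC control pIUT and DC-depleted pIUT.

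Itgb7 (chromosome 15, 102124429 to 102140379), the beta chain of gut-homing integrins on lymphocytes, reached 740 CPM in maternal uninjected cells. It had 1 count (0.0258 CPM) in maternal DC control mIUT, with 89.2 and 3.51 CPM in the maternal DC control and DC-depleted pIUT libraries. Recipient cells had 317, 53.5, 221 and 213 CPM. B-cell markers were also highest in maternal uninjected cells. They summed to 6807, 327, 49.7 and 30.3 CPM in maternal and to 1202, 71.2, 218 and 264 CPM in recipient libraries. Among the maternal IUT libraries they were highest in DC control mIUT, where Itgb7 was lowest. Their part in the Itgb7 level was not tested. In DC control mIUT the log2 ratio of maternal to recipient Itgb7 was -11.02 (interval -16.32 to -8.54), which rests on that 1 count. Maternal Itgb7 was 2.34-fold higher in uninjected pups, and 2.48-fold and 60.8-fold lower in DC control and DC-depleted pIUT.

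Itga4, the alpha chain that pairs with Itgb7 or Itgb1, did not follow Itgb7. Maternal Itga4 was at 43.1, 8.83, 0 and 9.93 CPM, with no count in DC control pIUT. Recipient levels were 11.1, 5.16, 8.46 and 17.4 CPM. The maternal level was 3.87-fold and 1.71-fold higher in uninjected and DC control mIUT pups, at least 143-fold lower in DC control pIUT, and 1.76-fold lower in DC-depleted pIUT. Itgb7 had 4514 counts in that same maternal DC control pIUT library.

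Itgb1 (chromosome 8, 129411876 to 129460618), the common beta chain of matrix receptors in most tissues, varied less than its leukocyte counterparts. Maternal cells had 159, 23.5, 163 and 80.7 CPM in uninjected, DC control mIUT, DC control pIUT and DC-depleted pIUT pups, and recipient cells had 184, 89.3, 135 and 171 CPM. No maternal to recipient ratio of Itgb1 reached 4-fold, and that in DC control mIUT came closest, at 3.80-fold lower. Within a library, Itgb7 per length was 8.67 times Itgb1 in maternal uninjected cells (8.44 to 8.91) and 0.0813 times in maternal DC-depleted pIUT (0.0669 to 0.0979). The ratio stood at 1.02 in maternal DC control pIUT and between 1.12 and 3.22 in the 4 recipient libraries.

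The alpha chains that pair with Itgb1 were sparse. Itga5, the alpha chain of the fibronectin receptor, was at 5.96, 17.9 and 10.4 CPM in maternal uninjected, DC control mIUT and DC-depleted pIUT cells and had 1 count in DC control pIUT. Recipient Itga5 had 0, 38, 298 and 1218 counts. Itga6, of laminin receptors, was at 5.63, 7.10 and 10.48 CPM in maternal uninjected, DC control mIUT and DC control pIUT libraries, with 0 counts in the remaining maternal library. Recipient Itga6 had 0 counts in uninjected pups and 13.1, 19.0 and 22.0 CPM after IUT. Both genes were thus present in the 3 recipient IUT libraries and at 0 in the recipient uninjected library.

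The alpha chains Itga7, Itga8 and Itga9, of muscle and stroma, were found mainly in maternal DC control pIUT. Itga7 had 997 counts there, 1 count in recipient DC-depleted pIUT and none elsewhere. Itga9 was at 48.1 CPM there, against 0.303 CPM in maternal DC-depleted pIUT and none in the other 2 maternal libraries. Recipient Itga9 was at 1.96, 0, 1.22 and 9.03 CPM in uninjected, DC control mIUT, DC control pIUT and DC-depleted pIUT. Itga8 was at 12.8 CPM there and at 1.73 CPM or lower in the other 7 libraries. The maternal level in DC control pIUT exceeded the recipient level by at least 297-fold for Itga7, 39.5-fold for Itga9 and 13.4-fold for Itga8. Mesenchymal markers summed to 95.1 CPM in the same library, against 0 to 51.7 CPM in the other 7. Of the 7 markers 5 had at least 10 counts there, with Pdgfra at 2101, and Lum and Pdgfrb had none. Their part was not tested. Itga1 and Itga3, of collagen and laminin receptors, had no count in maternal cells. Itga1 had 56, 169 and 105 counts in recipient DC control mIUT, DC control pIUT and DC-depleted pIUT, and Itga3 had 48 counts in recipient DC control mIUT.

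Chains that pair with Itgav bind vitronectin and latent TGF-beta. Itgav was at 6.91, 0, 13.5 and 3.21 CPM in maternal and at 0, 12.3, 8.92 and 17.4 CPM in recipient uninjected, DC control mIUT, DC control pIUT and DC-depleted pIUT libraries. Itgb3, the beta chain of the platelet fibrinogen receptor, was at 4.70 CPM in maternal uninjected cells, had 0 counts in both maternal DC control IUT libraries and 10 counts in DC-depleted pIUT. Recipient Itgb3 had 0 counts in uninjected pups and 16.5, 8.83 and 17.9 CPM after IUT. Itgb5 was highest in recipient DC-depleted pIUT, at 61.9 CPM, then in maternal DC control pIUT at 34.2 and recipient DC control pIUT at 29.4 CPM. In the other 5 libraries Itgb5 stood between 0 and 2.89 CPM. Itgav, Itgb3 and Itgb5 were all at 0 in recipient uninjected cells and all found in the 3 recipient IUT libraries.

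Itgb6 and Itgb4 are integrin chains of epithelium. Itgb6 had 5463 counts (113 CPM) in the recipient uninjected library and none in the other 7. The maternal uninjected level was at least 1465-fold below the recipient one. Epithelial markers summed to 2478 CPM in that library, against 4.08 to 404 CPM in the other 7. Krt8 and Krt18 carried that sum, with 54919 and 61017 counts. Epcam had 3908 counts there and 5925 in maternal DC control mIUT, Cdh1 had 5 counts there and 396 in recipient DC-depleted pIUT, and Krt5 and Krt14 had none there. The part of epithelium was not tested. Itgb4, which pairs with Itga6, had 614 counts in maternal DC control mIUT, where epithelial markers summed to 404 CPM, and 0 to 130 counts elsewhere. Itgb8 never exceeded 17 counts.

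Of the selectins, Sele, which activated endothelium makes, had no count. Selp, stored in platelets and endothelium, was at 12.2, 0, 4.78 and 0 CPM in maternal uninjected, DC control mIUT, DC control pIUT and DC-depleted pIUT. Recipient Selp was at 69.3, 5.23, 1.84 and 0.857 CPM. The recipient uninjected library was the highest of the 8, and megakaryocyte and platelet markers were also highest there, at a summed 371 CPM against 0 to 105 CPM in the others. That sum was carried by Pf4 (16486 counts) and Itga2b (1469 counts), while Ppbp and Gp9 had no count there. The part of platelets was not tested.

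Selplg (chromosome 5, 113956597 to 113970705), the main selectin ligand of leukocytes, was at 789, 516, 122 and 10.02 CPM in maternal uninjected, DC control mIUT, DC control pIUT and DC-depleted pIUT cells. Recipient cells had 752, 969, 337 and 258 CPM. Levels in uninjected pups differed by 1.05-fold between the origins, and maternal cells were 1.88-fold, 2.75-fold and 25.8-fold lower in DC control mIUT, DC control pIUT and DC-depleted pIUT. Scaled by Ptprc, Selplg stood between 1.48 and 3.80 counts per Ptprc count in all 8 libraries, with maternal DC-depleted pIUT at 3.80 the highest.

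The ligands of integrins were unevenly spread. Icam1, an inducible ligand of LFA-1, was at 89.8, 0, 47.2 and 4.21 CPM in maternal and 20.7, 3.14, 51.0 and 50.1 CPM in recipient uninjected, DC control mIUT, DC control pIUT and DC-depleted pIUT. Icam2, the constitutive ligand, was at 168, 9.81, 14.6 and 26.1 CPM in maternal and 185, 21.7, 45.4 and 36.9 CPM in recipient libraries. Icam2 was highest in the uninjected library of each origin and lowest in DC control mIUT. Vcam1, the ligand of Itga4 pairs, had 1 count in maternal uninjected cells, none in maternal DC control mIUT, and 8.99 and 14.3 CPM in maternal DC control and DC-depleted pIUT. Recipient Vcam1 was at 0, 0.907, 5.87 and 108.5 CPM, so that recipient DC-depleted pIUT stood above the other 7 libraries.

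Pecam1, which lines endothelial junctions and is also carried by platelets and leukocytes, was at 42.6, 33.7, 16.2 and 0.454 CPM in maternal and 41.1, 5.65, 25.7 and 18.1 CPM in recipient libraries. The maternal level was 5.97-fold higher in DC control mIUT and 39.8-fold lower in DC-depleted pIUT. The 8 endothelial markers summed to 172 CPM in maternal DC-depleted pIUT, to 59.2 CPM in recipient DC-depleted pIUT and to between 2.06 and 44.9 CPM in the other 6 libraries, with 1 to 6 of 8 at 10 counts or more. Egfl7 carried the highest sum, with 5549 counts in maternal DC-depleted pIUT. The other markers did not peak together. Tek and Tie1 had 62 and 534 counts in recipient DC-depleted pIUT and none elsewhere. Kdr and Ptprb had 1092 and 712 counts in maternal DC control pIUT and none in recipient DC-depleted pIUT, and Cdh5 peaked in recipient uninjected cells with 847 counts. The part of endothelium in the Vcam1 and Pecam1 levels was not tested.

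Cd44, the hyaluronan receptor of most leukocytes, was found in every library. Maternal cells had 169, 217, 234 and 56.6 CPM, and recipient cells 276, 502, 141 and 106 CPM. No maternal to recipient ratio of Cd44 passed 2.32-fold.

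S1pr1 (chromosome 3, 115504071 to 115508721) stood far apart between the origins in uninjected pups. Maternal cells of uninjected pups had 248 CPM (9642 counts), against 0, 14.6 and 3.18 CPM in the IUT libraries. Recipient cells of uninjected pups had 2 counts, against 17.2, 19.2 and 22.5 CPM after IUT. The log2 ratio of maternal to recipient S1pr1 was 12.55 in uninjected pups (interval 10.70 to 15.60). After IUT the maternal level was at least 222-fold, 1.32-fold and 7.07-fold lower, in treatment order. Summed markers of 3 cell types were also highest in uninjected pups among maternal libraries and higher after pIUT than in uninjected pups among recipient libraries. T cell markers summed to 2338, 468, 108 and 379 CPM in maternal and to 522, 628, 3389 and 908 CPM in recipient libraries. NK cell markers summed to 318, 0.0258, 5.44 and 3.60 CPM in maternal and to 36.9, 2.48, 96.2 and 134 CPM in recipient libraries. Mast cell and basophil markers summed to 145, 0.0258, 0 and 7.78 CPM in maternal and to 0, 34.4, 212 and 584 CPM in recipient libraries. The part of these cells in the S1pr1 and Itgae levels was not tested.

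**Figure D3:**
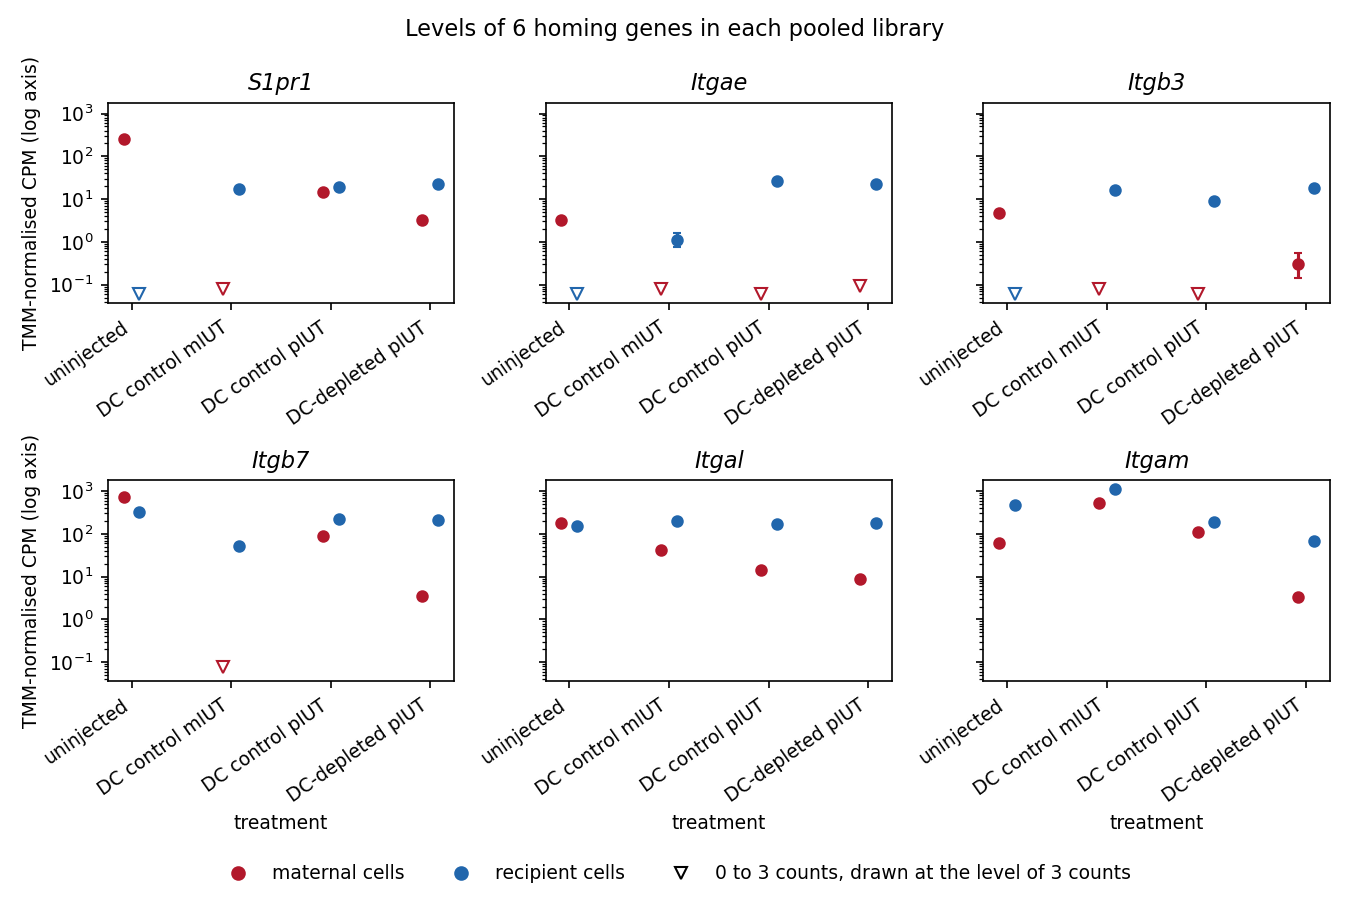
TMM-normalised CPM on a log axis for S1pr1, Itgae, Itgb3, Itgb7, Itgal and Itgam by treatment, with maternal cells in red and recipient cells in blue, 1 pooled library per point and 95% counting intervals; open triangles mark 3 counts or fewer. S1pr1, Itgae and Itgb3 were the higher in maternal cells of uninjected pups and in recipient cells of all 3 IUT treatments.

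Over all members, a gene was called higher or lower at 4-fold or more if it had at least 10 counts in either library, with each count raised to the floor of 3. In uninjected pups 22 members entered, of which 9 were higher in maternal cells (41.3% of all 14028 genes were) and 4 were lower (15.1% of all genes). The higher members were Itga5, Itga6, Itga8, Itgav, Itgae, Itgb3, Itgb5, Icam1 and S1pr1, of which all but Icam1 were at 3 counts or fewer in the recipient library. Itga9, Itgam, Itgb6 and Selp were lower. The median log2 ratio of the members was 0.75 and that of all genes 0.79. These shares were near those of all genes.

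In DC control mIUT 24 members entered, with 3 higher in maternal cells (13.4% of all genes) and 13 lower (35.9% of all genes). Itga5, Itgb4 and Pecam1 were higher, and the median log2 ratio was -2.90 for members and -0.66 for all genes. In DC control pIUT 27 members entered, with Itga7, Itga8 and Itga9 higher (19% of all genes) and 8 lower (25.3% of all genes). The medians were -0.86 and -0.27. In DC-depleted pIUT 26 members entered, with 0 higher (9.61% of all genes) and 19 lower (28.3% of all genes), and medians of -4.17 and -0.66. Dividing by the Ptprc count, a scaling chosen after the data were seen, moves all genes of a comparison by the same amount. In DC-depleted pIUT, where maternal Ptprc had 87 counts, that shift was 6.00 on the log2 scale. With it 12 of 26 members were called higher (90.4% of all genes) and 0 lower (0.357% of all genes) in maternal cells. Selp and Itgb8, among the 12, had 0 maternal against 47 and 11 recipient counts, so only the floor of 3 counts made them higher. The floor also kept Itga6 and Itgae, at 0 maternal against 1206 and 1235 recipient counts, from a lower call, at -1.92 and -1.96. In DC control pIUT 7 of 27 were higher per Ptprc count (37.9% of all genes) and 6 lower (14% of all genes).

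**Figure D4:**
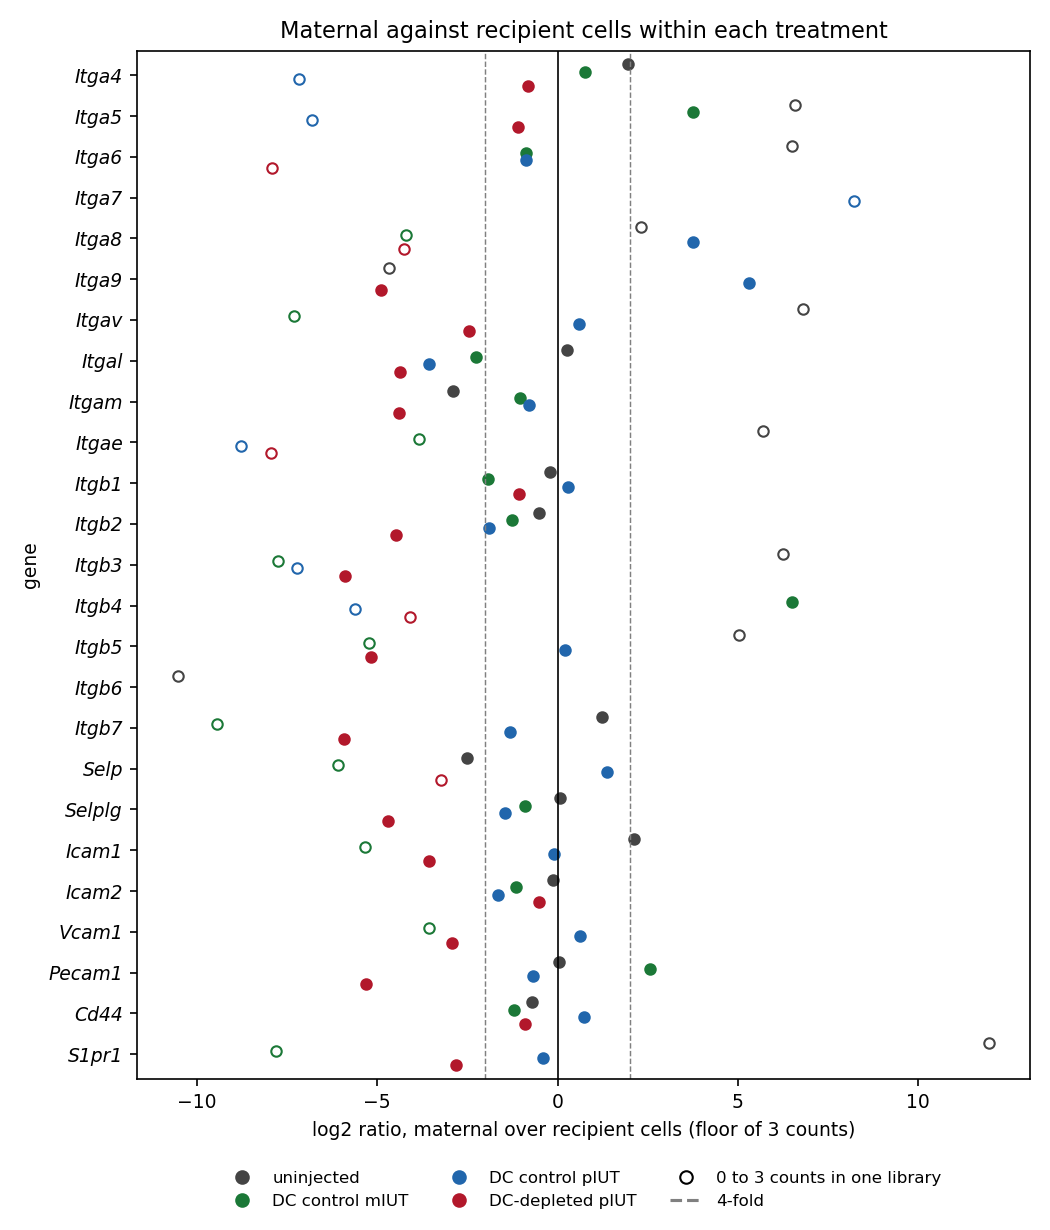
Log2 ratio of maternal over recipient cells for the 25 members with at least 10 CPM in some library, with 1 point per treatment. Open circles have 0 to 3 counts in either library and dashed lines mark 4-fold. Itgam, Itgb2 and Icam2 lie left of 0 in all 4 treatments, and DC-depleted pIUT points lie left of 0 for all genes with a point, on the TMM scale.

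Across the 4 treatments, 20 members had at least 10 counts in each comparison. Itgam, Itgb2 and Icam2 were lower in maternal cells in 4 of 4 treatments (9.36% of 11419 genes were) under each of the 3 library scalings tried, though not per Ptprc count, and 0 members were higher in 4 of 4 (3.84% of genes). The mean log2 difference was -2.27 ± 1.69 (SD, n = 4 treatments) for Itgam, -2.03 ± 1.73 for Itgb2 and -0.86 ± 0.67 for Icam2. The two-sided exact paired permutation test gave p = 0.125 for each, the smallest value that 4 pairs allow. With treatment as a block, edgeR's quasi-likelihood test called 0 of 22 members and 0 of 13384 genes (0%), with an adjusted p of 1. At an unadjusted p below 0.05 edgeR's test held 283 genes (2.11%) and 3 members, Itgam, Itgal and Itgb2 (Benjamini-Hochberg adjusted p = 1 for each), all lower in maternal cells. DESeq2 with the same design called 267 of the 15832 genes to which it gave an adjusted p (1.69%) and 2 of 27 members, Itgae and Itgb6. Itgb6 had counts in the recipient uninjected library alone. Itgae was higher in maternal cells of uninjected pups and lower in those of the 3 IUT treatments. Without the DC-depleted pIUT pair, 137 of 12980 genes (1.06%) and 0 of 22 members were at an unadjusted p below 0.05 by edgeR. Ptprc was also lower in maternal cells in each treatment, at 229 against 242, 163 against 459, 70.2 against 227 and 2.63 against 168 CPM. Per Ptprc count, which moves all genes by 1.5, 1.69 and 6.00 on the log2 scale in the 3 IUT treatments, Itgam was higher in maternal cells of DC control mIUT, DC control pIUT and DC-depleted pIUT, with log2 ratios of 0.45, 0.91 and 1.62. On that scale Itgb2 was at 0.24, -0.20 and 1.52 and Icam2 at 0.35, 0.05 and 5.50.

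Each IUT library was then set against uninjected pups within its origin, so that 3 comparisons share 1 library. In maternal cells of DC control mIUT, 2 of 21 members were higher (17.9% of all genes) and 12 lower (36.4% of all genes). Itgam was 8.50-fold and Itgb4 at least 206-fold higher there, while S1pr1 was at least 3198-fold and Icam1 at least 1159-fold lower. In DC control pIUT, 5 of 24 were higher (24.2% of all genes) and 9 lower (23.7% of all genes). Itga9 was at least 623-fold higher and Itgb5 16.8-fold higher, while Itgal was 12.5-fold and Selplg 6.45-fold lower. In DC-depleted pIUT, 2 of 23 were higher (23.6% of all genes) and 14 lower (26.1% of all genes), among them Itgb7 at 211-fold and Selplg at 78.7-fold lower. The 2 higher were Itgad, by at least 33.4-fold, and Vcam1, whose log2 ratio of 9.12 (interval 6.64 to 14.43) rests on 1 count in uninjected cells. Per Ptprc count, which moves all genes by 6.44 on the log2 scale in this last comparison, 15 of 23 members were called higher (89.9% of all genes) and 0 lower (0.825% of all genes). Itga8, among the 15, had 0 counts against 12 in uninjected cells, so only the floor of 3 counts made it higher. In DC control pIUT that scaling gave 10 of 24 higher (45.8% of all genes) and 5 lower (14.6% of all genes).

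The same comparisons were made in recipient cells. In DC control mIUT 11 of 25 members were higher than in uninjected pups (45% of all genes) and 7 lower (17.6% of all genes). In DC control pIUT 13 of 27 were higher (45.4% of all genes) and 3 lower (13.3% of all genes). In DC-depleted pIUT 13 of 27 were higher (47.1% of all genes) and 4 lower (11% of all genes). The medians were 1.24, 1.30 and 1.69 for the members and 1.22, 1.36 and 1.69 for all genes, so the members did not stand apart from the table. Itga1, Itga5, Itga6, Itga8, Itgav, Itgae, Itgb3, Itgb5 and Vcam1 were at 0 in the recipient uninjected library and 4-fold or more higher in all 3 IUT libraries, S1pr1 with 2 counts likewise. Itgb6, Selp and Icam2 were lower in all 3, by 4.07-fold to 8.52-fold for Icam2 and 13.2-fold to 80.8-fold for Selp. Itgal, Itgb1 and Itgb2 stayed within 3.03-fold of the uninjected library.

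**Figure D5:**
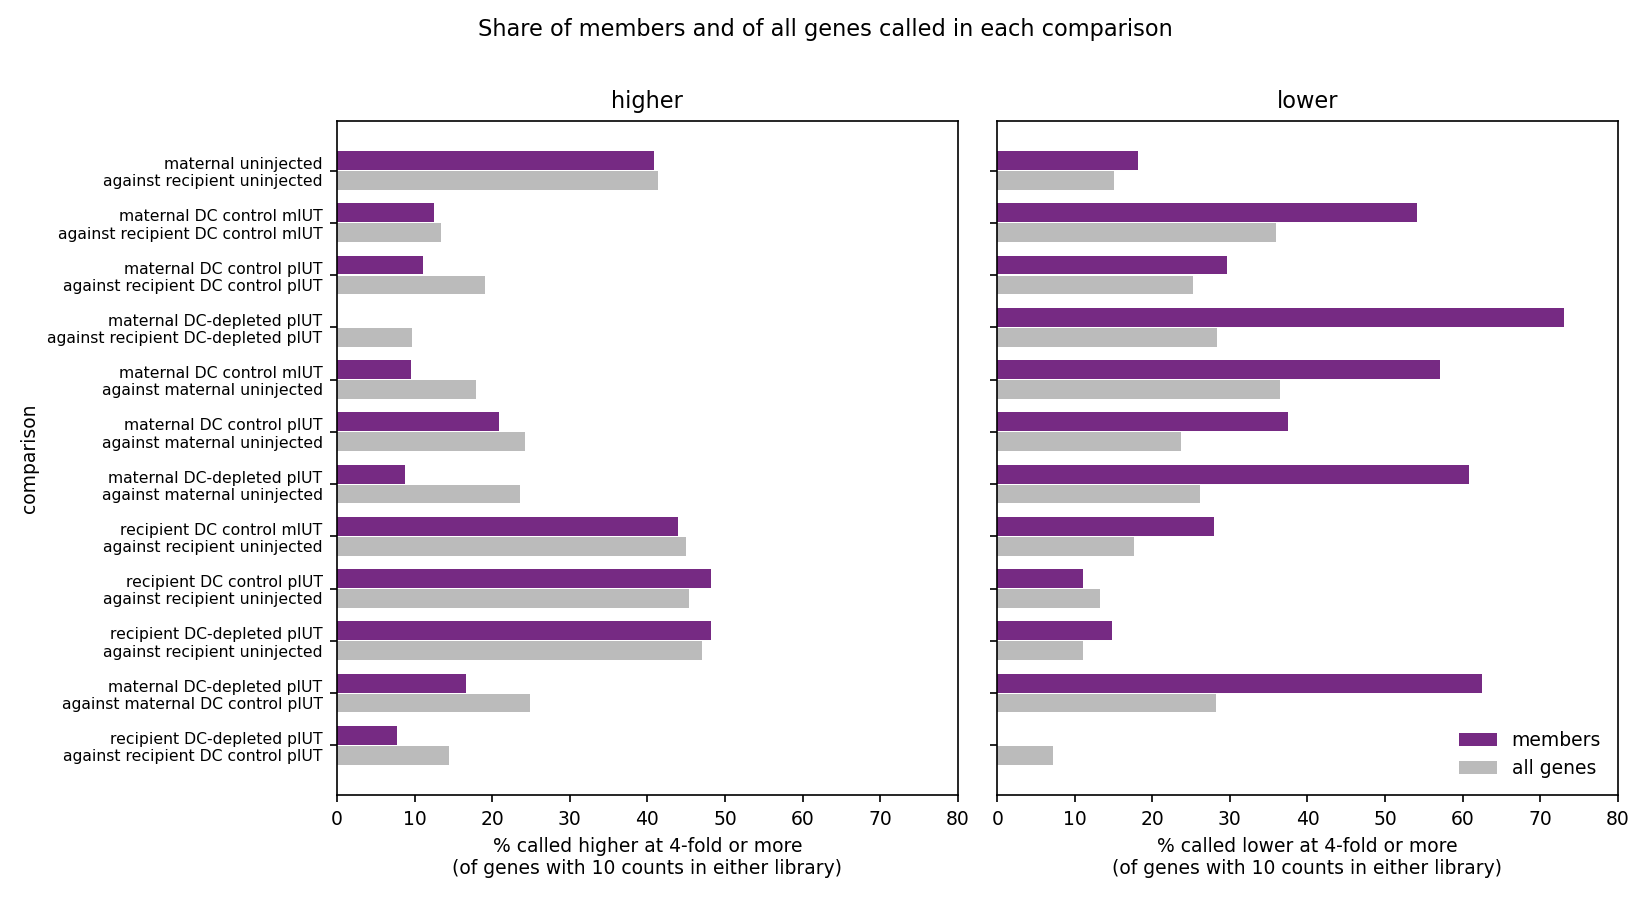
Percent of members (purple) and of all genes (grey) called higher (left) or lower (right) at 4-fold or more in each of the 12 comparisons, among genes with 10 counts in either library. Members called lower make up 19 of 26 in maternal against recipient DC-depleted pIUT and 15 of 24 in maternal DC-depleted against DC control pIUT.

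DC-depleted pIUT was compared with DC control pIUT within each origin. In maternal cells 4 of 24 members were higher (24.9% of all genes) and 15 lower (28.2% of all genes), with a median log2 ratio of -2.63 for members and -0.07 for all genes. Itgam was 32.9-fold, Pecam1 35.6-fold, Itgb7 25.4-fold, Selplg 12.2-fold and Itgb2 8.32-fold lower with DC depletion. Itga4 was at least 167-fold and Itgad at least 43.4-fold higher. Itga5 was higher with a log2 ratio of 9.03 (interval 6.55 to 14.34) against 1 count. Per Ptprc count, a shift of 4.74 for all genes, 12 of 24 members were called higher (78.1% of all genes) and 4 lower (4.62% of all genes). Itgb8, among the 12, had 0 counts against 10 in DC control pIUT, so only the floor of 3 counts made it higher. In recipient cells 2 of 26 members were higher (14.4% of all genes), Vcam1 by 18.5-fold and Itga9 by 7.42-fold, and 0 were lower (7.21% of all genes). Per Ptprc count 4 of 26 were higher (18.7% of all genes) and 0 lower (5.03% of all genes). The medians were 0.04 for members and 0.10 for all genes. Itgal, Itgb1, Itgb2, Itgb7, Selplg, Cd44 and S1pr1 differed by 1.04-fold to 1.38-fold between the recipient libraries.

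Genes that work with the members were counted by list in maternal against recipient cells, in the order uninjected, DC control mIUT, DC control pIUT and DC-depleted pIUT. Across these 41.3%, 13.4%, 19% and 9.61% of all genes tested were higher and 15.1%, 35.9%, 25.3% and 28.3% lower. Of 27 genes of integrin activation and focal adhesion (talins, kindlins, Rap1 and their partners), 25, 22, 26 and 26 had 10 counts in either library, of which 0, 0, 4 and 0 were higher and 4, 4, 6 and 11 lower. Tln2, the talin of muscle and brain, was lower in 4 of 4, with 0, 0, 0 and 1 counts in maternal and 250, 40, 57 and 85 counts in recipient libraries. Tln1, the talin of leukocytes, was lower in 1 of 4, and Fermt3, the kindlin of blood cells, was found in all 8 libraries at 106 to 720 CPM. Both were chosen after their values were seen, as was Klf2, given with the S1P genes. Of 10 genes that make selectin ligands, 8, 7, 9 and 9 were tested, of which 2, 0, 1 and 1 were higher and 1, 1, 2 and 3 lower. Fut7, the fucosyltransferase of leukocyte selectin ligands, had 331 counts in maternal uninjected cells and 0 in the 3 maternal IUT libraries. Its recipient counts were 0, 468, 209 and 825. Fut4, which fucosylates the same sugars, had 3, 1115, 0 and 0 counts in maternal and 2610, 782, 230 and 271 counts in recipient libraries.

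Of 17 matrix and other integrin ligands, 13, 11, 14 and 17 were tested, of which 2, 5, 11 and 0 were higher and 9, 3, 2 and 8 lower in maternal cells. In DC control pIUT, which held the 11, mesenchymal markers summed to 95.1 CPM in maternal against 8.88 CPM in recipient cells, and hepatocyte markers to 111 against 1.02 CPM. Fn1, fibronectin, the ligand of Itga5 and Itga4 pairs, was lower in 3 of 4, with 2308, 156, 2 and 27 counts in maternal and 21262, 43, 113 and 3921 counts in recipient libraries. In recipient cells 14 of these 17 ligands were higher (14.4% of all genes) and 1 lower (7.21% of all genes) with DC depletion than in DC control pIUT. Hepatocyte markers stood at a summed 490 against 1.02 CPM between these libraries, mesenchymal markers at 51.7 against 8.88 CPM and endothelial markers at 59.2 against 22.5 CPM. Fga, Fgb, Fgg and Vtn, among the 14, are made by hepatocytes, and the list of hepatocyte markers also holds Fgb. The part of these cells in the ligand levels was not tested. Of 12 genes of S1P production, receptors and control, 11, 10, 11 and 12 were tested, of which 4, 0, 2 and 1 were higher and 1, 4, 2 and 6 lower. Sphk1, which makes S1P, had 27, 1, 1165 and 12853 counts in maternal cells and 0, 0, 0 and 853 in recipient cells, and was called higher in 3 of 4. Klf2, a transcription factor that drives S1pr1 in T cells, was at 942, 116, 112 and 6.63 CPM in maternal and 324, 255, 81.3 and 99.2 CPM in recipient libraries. Like S1pr1, Klf2 was highest in maternal uninjected cells. Of 14 other vascular adhesion genes 7, 7, 12 and 11 were tested, of which 3, 2, 7 and 1 were higher and 3, 3, 1 and 9 lower. Of 6 hyaluronan genes 3, 5, 5 and 4 were tested, of which 2, 1, 2 and 0 were higher and 0, 3, 2 and 2 lower.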

How the data were processed

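The authors deposited estimated counts per gene for 8 libraries, made with salmon in nf-core's pipeline on the GRCm39 genome and left unnormalized, while the methods of the study name featureCounts. They were rounded to whole numbers. The 8 columns all belong to a sample. The deposited receptor clonotype tables were not used here. Totals lay between 38543457 and 47965130 counts. CPM is a count over the library total times its TMM factor (0.689 to 1.32, edgeR 4.0.16, R 4.3.3), with intervals exact Poisson for levels and exact binomial for ratios at the 95% level. Ratios used a floor of 3 counts and genes with at least 10 counts in either library, and calls were made at 4-fold. A ratio against 0 counts is a bound, and one against 1 to 3 counts is given unfloored with its interval.

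Maternal and recipient libraries of a treatment came from the same pooled pups, so treatment was a block in edgeR's quasi-likelihood test over all 8, with Benjamini-Hochberg adjustment and calls at 0.05. The 4 treatments stand in for replicates there. Alternatives were DESeq2 1.42.0 size factors and test, total counts, edgeR's exact-test fold change at a dispersion of 0.4, no count filter, no block, leaving out a treatment, and counts per Ptprc count. The 4-fold ratio, for maternal against recipient uninjected cells, and edgeR's quasi-likelihood test were tested on simulated data. The motif search was checked on made sequences. The other steps were not simulated. Symbols, positions, transcript lengths and start sites came from GENCODE vM39 on GRCm39, which matched 98.0% of gene identifiers, and sequences from the GRCm39 genome. Python 3.11.15 and matplotlib 3.10.9 were used. Values are given for all members with at least 10 CPM in some library, and pathway genes are named if called the same way in at least 3 of 4 maternal against recipient comparisons. Members, gene lists and tests were chosen with earlier results of these data known.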

Additional observations from a re-analysis of the deposited data

Results flagged for a closer look

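S1pr1, Itgae and Itgb3 differed between the origins in how the IUT libraries compared with the uninjected library. Each was 4-fold or more lower in all 3 maternal IUT libraries and 4-fold or more higher in all 3 recipient IUT libraries. The mean log2 ratio to uninjected pups, with the floor of 3 counts, was -7.34 in maternal and 8.30 in recipient cells for S1pr1, a difference of -15.635. For Itgae it was -5.41 and 7.13, a difference of -12.543, and for Itgb3 -5.40 and 7.79, a difference of -13.19. These differences were not tested, since each origin and treatment has 1 library and the 3 ratios of an origin share the uninjected library. Of 25066 genes with a count, 299 (1.19%) showed this pattern and 37 (0.148%) the opposite pattern. The recipient uninjected library, on which the recipient ratios rest, had 0 counts of Itgae and Itgb3 and 2 of S1pr1. It had the fewest genes with at least 10 counts of the 8 libraries, 9125, and its epithelial and platelet markers summed to the highest of the 8. Among other cell types, the summed mast cell and basophil markers, and Ncr1, Klrb1c and Blk among NK and B-cell markers, were likewise lower in the 3 maternal and higher in the 3 recipient IUT libraries than in uninjected cells of the same origin. T cell markers summed to 2338 CPM in maternal uninjected cells against 108 to 468 CPM after IUT, and to 522 CPM in recipient uninjected cells against 628, 3389 and 908 CPM after IUT. In recipient DC control mIUT 6 of the 8 T cell markers were lower than in uninjected cells, and without Cd3d the sum was 228 against 487 CPM. NK cell markers summed to 318 CPM in maternal uninjected cells against 0.0258 to 5.44 CPM in the maternal IUT libraries, and to 36.9 CPM in recipient uninjected cells against 2.48, 96.2 and 134 CPM after IUT. Of them Ncr1 had 2256, 0, 0 and 0 counts in maternal and 0, 25, 2184 and 3606 counts in recipient libraries, in the order uninjected, DC control mIUT, DC control pIUT and DC-depleted pIUT. Klrb1c had 5695, 0, 0 and 37 and then 0, 18, 1112 and 1990 counts. B-cell markers summed to 6807 CPM in maternal uninjected cells against 30.3 to 327 CPM after IUT, and to 1202 CPM in recipient uninjected cells against 71.2 to 264 CPM. Of them Blk had 7247, 756, 0 and 0 counts in maternal and 0, 90, 1322 and 1445 counts in recipient libraries. Mast cell and basophil markers summed to 145 against 0 to 7.78 CPM in maternal and to 0 against 34.4 to 584 CPM in recipient libraries. The part of these cell types in the values was not tested.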

How the results depend on the processing

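Of 175 member ratios called at 4-fold, none changed sign with DESeq2 size factors or total counts alone, and counts per Ptprc count, a scaling added after the data were seen, move all genes of a comparison by the same amount, by up to 6.44 (log2), so that calls there follow the shift. The counts of members called stayed within 1.5 times those reported with DESeq2 size factors, total counts, edgeR's exact-test fold change and no count filter. Per Ptprc count, maternal against recipient cells gave 7 members higher in DC control pIUT (37.9% of all genes), and 12 higher and 0 lower in DC-depleted pIUT (90.4% and 0.357%). Selp and Itgb8, among the 12, had 0 maternal counts and were called higher only through the floor of 3 counts. Against uninjected maternal cells this scaling gave 10 higher and 5 lower in DC control pIUT (45.8% and 14.6%) and 15 higher and 0 lower in DC-depleted pIUT (89.9% and 0.825%). The same holds for Itga8, among the 15, with 0 counts in maternal DC-depleted pIUT. DC-depleted against DC control pIUT gave 12 higher and 4 lower in maternal cells (78.1% and 4.62%) and 4 higher in recipient cells (18.7%). Itgb8, among the 12, had 0 counts in maternal DC-depleted pIUT and was called higher only through the floor. Of the library scalings, total counts moved the median of all genes, most in maternal against recipient DC-depleted pIUT, from -0.66 by TMM to -1.28 by total counts (log2). DESeq2 with the same design called 267 of 15832 genes (1.69%) and 2 of 27 members, Itgae and Itgb6, and the cause was not tested. Itgb6 had counts in the recipient uninjected library alone, and Itgae changed direction between uninjected pups and IUT. With no replicate block edgeR called 0 genes, 0 with total counts or no filter, and between 0 and 0 when a treatment was left out. At an unadjusted p below 0.05 it then held 120 of 13384 genes (0.897%) and 0 of 22 members with no block, 137 of 12980 genes (1.06%) and 0 of 22 members without DC-depleted pIUT, and 760 of 14183 genes (5.36%) and 7 of 25 members without uninjected pups, the lowest and highest of the 4 fits that leave out a treatment. Ratios against 0 counts are bounds and those against 1 to 3 counts have wide intervals. The summed member level of maternal DC-depleted pIUT, 251 CPM, was 259 with DESeq2 size factors and 215 with total counts.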
